A study of Drosophila melanogaster with 2 samples.

Results

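Of 5321 REPTOR peaks that the authors kept in whole Drosophila melanogaster embryos, 676 (12.7%, exact Clopper-Pearson 95% interval 11.8 to 13.6) had their summit in an intron at some distance from a start of transcription. These summits lay inside a protein-coding gene, in no annotated exon, more than 1000 bp from every annotated start site and at most 5000 bp from the nearest protein-coding start site. They were chosen by position alone, from the deposited peak list on the dm6 build and the BDGP6 gene annotation. The 676 summits fell in 474 host genes.

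The study was a chromatin immunoprecipitation with sequencing (ChIP-seq) experiment on 2 biological replicates of 1 group, which the labels number 1 and 3. The embryos were 0 to 24 h old, of both sexes pooled, and came from a transgenic line with stable expression of CG13624, now named REPTOR, joined at its C terminus to GFP. An antibody against GFP pulled down the chromatin. No other genotype or stage was sampled, and the control experiment's own data were not analysed here. The whole embryo holds many tissues, so a peak does not say in which cells the protein was bound.

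REPTOR belongs to the bZIP family of transcription factors and responds to TORC1, the kinase complex that couples growth to nutrients. When TORC1 is active, REPTOR is phosphorylated and held in the cytoplasm, and when TORC1 activity falls it enters the nucleus and activates genes together with its partner REPTOR-BP. Introns close to a promoter, the first intron above all, often hold enhancers in flies.

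The sequences round 10 of the summits show what the bound intervals looked like. The first 6 are the strongest ones for which sequence is shown, and Trl, Raf, REPTOR and bmm were added, after their values were seen, for the known roles of their host genes. Each is the plus strand of the RefSeq dm6 genome, with the summit base and 50 bases on each side. Capitals mark each match to any of 25 motifs searched for. The matches were Scalloped in ush, a homeodomain word and GATA in CG11050, PAR bZIP in CG3726, GATA in CG9837 and REPTOR, FOXO in Trl and Pho in Raf. CG32772, Tlk and bmm held no match.
ush (chr2L:481029-481129): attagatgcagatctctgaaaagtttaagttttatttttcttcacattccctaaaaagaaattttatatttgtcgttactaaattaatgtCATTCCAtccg
CG11050 (chr2L:6612658-6612758): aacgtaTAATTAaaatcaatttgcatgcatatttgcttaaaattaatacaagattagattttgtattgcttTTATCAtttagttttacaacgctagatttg
CG32772 (chrX:4910345-4910445): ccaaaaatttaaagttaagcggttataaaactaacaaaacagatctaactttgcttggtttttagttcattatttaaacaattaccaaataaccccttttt
Tlk (chrX:3742189-3742289): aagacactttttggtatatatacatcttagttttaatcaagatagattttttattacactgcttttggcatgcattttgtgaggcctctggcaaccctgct
CG3726 (chrX:5918846-5918946): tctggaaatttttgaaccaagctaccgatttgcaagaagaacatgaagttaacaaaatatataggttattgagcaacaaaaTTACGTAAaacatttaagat
CG9837 (chr3R:8811626-8811726): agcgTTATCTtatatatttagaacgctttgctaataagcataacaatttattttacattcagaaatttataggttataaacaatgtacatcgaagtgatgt
Trl (chr3L:14759446-14759546): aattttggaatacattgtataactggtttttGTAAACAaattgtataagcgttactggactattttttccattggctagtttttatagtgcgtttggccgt
Raf (chrX:2297673-2297773): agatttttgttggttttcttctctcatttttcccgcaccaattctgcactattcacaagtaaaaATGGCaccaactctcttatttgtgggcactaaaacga
REPTOR (chr3R:24567525-24567625): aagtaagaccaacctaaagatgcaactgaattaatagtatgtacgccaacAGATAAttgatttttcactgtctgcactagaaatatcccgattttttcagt
bmm (chr3L:14785116-14785216): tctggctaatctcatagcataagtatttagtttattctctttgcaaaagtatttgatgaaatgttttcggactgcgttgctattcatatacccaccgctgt
All 10 windows were rich in A and T, and the CG11050 window had a GC content of 22.8%.

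The strongest intronic summit was also the strongest peak of the whole list. It lay in the first intron of ush, which encodes a zinc finger cofactor of GATA factors, at chr2L:480581-481388 and 1391 bp upstream of the start of cbt (cabut), which encodes a transcription factor. Its peak signal was 1361 in replicate 1, 1403 in replicate 3 and 2773 in the list made from both. It ranked 1 in each replicate. The list from both replicates has its own scale, so its values are compared only with each other.

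The second strongest summit lay in CG11050, in an intron of only 140 bp, with a signal of 1033 in replicate 1, 941 in replicate 3 and 1972 in the joint list. CG32772 followed with 650 and 613 in replicates 1 and 3. Tlk, a chromatin-associated kinase, had 523 and 532. In each of these genes both replicates placed the peak high: all were within the 29 strongest calls of either replicate.

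CG3726 (444 in replicate 1, 480 in replicate 3) and CG9837 (463 and 444) came next. Trl encodes the GAGA factor, which binds GA-rich promoters, and its strongest summit (455 and 432) lay 1534 bp upstream of CG42507. norpA, the phospholipase C of phototransduction, had 389 and 356. The cGMP-dependent kinase gene for had 371 and 342, and the transcription factor gene NFAT 361 and 317. The kinase gene Raf, which carries the signal from Ras to the MAP kinase cascade, had 299 and 346. These 7 summits were high in both replicates, and no one of them was carried by a single replicate. The authors made the list by irreproducible discovery rate, which keeps peaks of similar rank in both replicates. Agreement at the strongest peaks was thus in part a condition of entry.

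The remaining 9 of the 20 strongest were in Csk, which encodes a kinase that restrains Src, CG34417, REPTOR, CG32425, mnb, a second summit of CG9837, upSET, Pdcd4 and Pits. REPTOR itself had 265 in replicate 1 and 316 in replicate 3, at a summit 4390 bp downstream of a start of its own gene. The fly line also carried a transgene of this gene, and reads from the transgene and from the gene itself cannot be told apart here. The second summit of CG9837 lay 799 bp from the first and had 268 and 212. Among the 20, the centred log2 ratio of replicate 1 to replicate 3 was at most 0.38 in size.

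**Figure D1:**
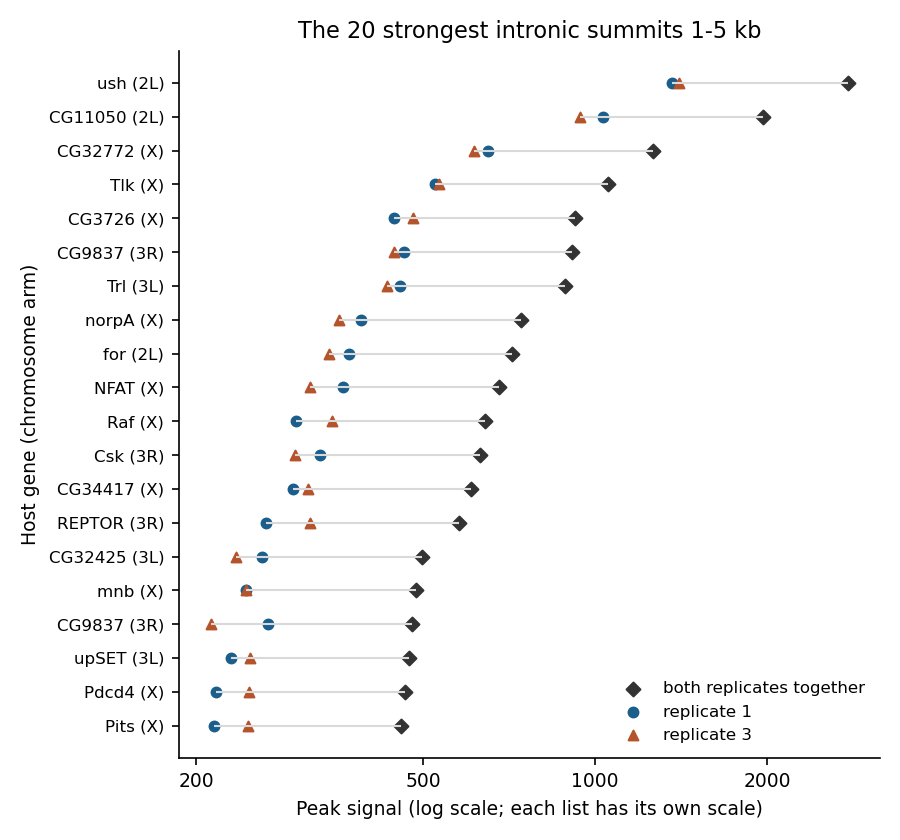
Peak signal (log scale) of the 20 strongest intronic summits, by host gene and chromosome arm, for replicate 1 (circles), replicate 3 (triangles) and the list made from both (diamonds, on its own scale). The circles and triangles sit close together in every row, and ush leads with 1361 and 1403.

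The X chromosome held 10 of these 20 summits, beside 155 of all 676. Of its 155 summits, 49.0% (exact Clopper-Pearson 95% interval 40.9 to 57.2) were above the median signal of the optimal list. On the other large arms the share was 45.3% to 49.5%. This was not tested, and a share above the median says nothing of the strongest summits alone. The density was 42.7 per Mb of eligible sequence on X (exact Poisson 95% interval 36.2 to 49.98) and 32.6 on 2L (26.6 to 39.5). These intervals overlap, which does not show that the densities were equal, and the difference was not tested. On chromosome 4, 0 summits met the rule in 0.232 Mb.

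Over all 676 summits the signal ran from 78.0 to 2773, with a median of 121 and quartiles of 94.6 and 180, and the median of the whole list was 125. Only 14 exceeded 500. Of the 676, 319 (47.2%) were above the median of the optimal list, beside 50% of all peaks by construction. That share was 43.7% of 410 intronic summits beyond 5 kb, 44.8% of 487 summits over 100 and up to 1000 bp downstream of a start site and 44.4% of 356 intergenic summits. None of these 3 differences passed Fisher's exact test (two-sided, adjusted p = 0.622, 0.658 and 0.658, over 12 tests of shares). Each of them depended on the settings. Without replicate 3 the difference from summits beyond 5 kb was 10.4 percentage points (exact test, adjusted p = 0.00234) and without replicate 1 it was -0.42. The difference from intergenic summits was 7.65 without replicate 3 (exact test, adjusted p = 0.0387), and that from downstream summits was 8.66 with a limit of 500 bp from start sites (exact test, adjusted p = 0.0400).

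All but 2 summits overlapped a call in each replicate, which the authors' selection for agreement between replicates favours. Signals in the replicates were correlated across 674 regions (Spearman's rank correlation 0.73, given as a description, since all regions share the same 2 libraries). In 505 of 676 (74.7%) the overlapping call was among the 5321 strongest of both replicates, against 78.6% of all optimal peaks. The share rose with signal, from 20.7% of the 169 weakest summits through 80.5% and 97.6% of the next sets of 169 to 100% of the 169 strongest. Some rise was fixed in advance, since the sets were cut by the joint signal, which was made from the same 2 replicates. Within the weakest set the rank correlation of the replicates was -0.51, and within the strongest it was 0.76. Within a narrow range of joint signal, a low value in either replicate tends to go with a high value in the other. The correlations within sets thus do not measure how well the replicates agreed at weak or strong summits. The part of the cut in the share and in the correlations was not tested.

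A difference of more than 2-fold between replicates occurred at 27 summits (3.99%), beside 4.34% of all optimal peaks, 14 of them higher in replicate 1 and 13 higher in replicate 3. The 3 widest gaps in each direction were as follows. Socs36E, an inhibitor of JAK/STAT signalling, had 74.8 in replicate 1 and 20.2 in replicate 3. Hsp83, the fly Hsp90, had 71.1 and 22.3, and CG10939 had 73.2 and 28.7. In the other direction, crp had 46.0 in replicate 1 and 141 in replicate 3, the autophagy gene Atg5 had 23.8 and 69.3, and drongo had 27.3 and 72.7. Of these 6, crp had a joint signal of 187, above the upper quartile of the summits, and the others were below the median of the whole list. With 2 samples no test between replicates was possible.

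**Figure D2:**
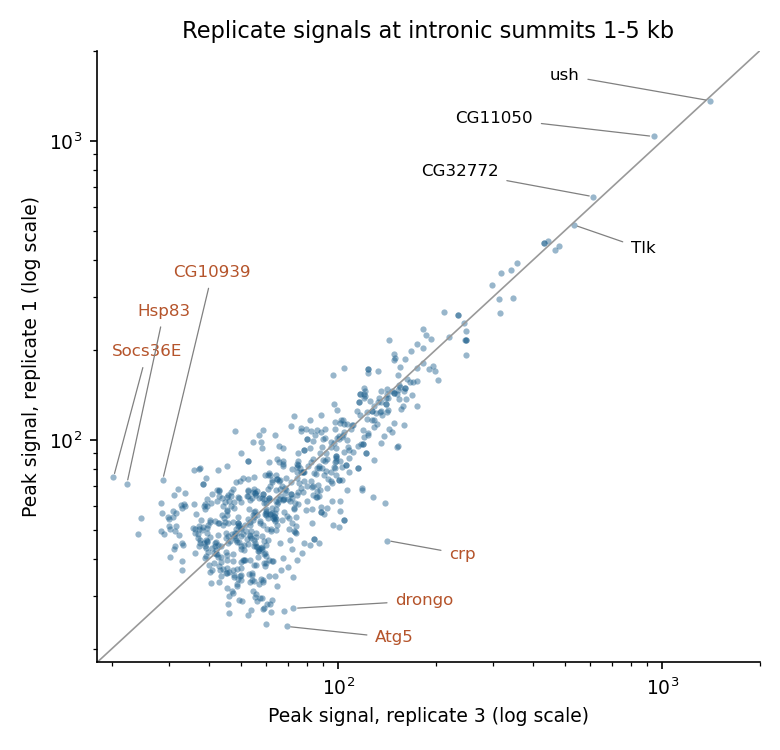
Peak signal of each intronic summit in replicate 3 (horizontal) and replicate 1 (vertical), both on log scales, with the line of equal values. Strong summits such as ush, CG11050, CG32772 and Tlk lie on the line, and the 6 named in colour lie farthest from it.

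Of the 676 summits, 64 (9.47%) belonged to rows that overlapped another row of the optimal list, with a summit of their own. Such rows take the same replicate call. At Trl, rows with joint signals of 885 and 105 shared the calls of 455 and 432. Keeping the strongest row of each group left 642 summits, of which 73.5% were among the strongest calls of both replicates.

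Intronic summits were denser near start sites. There were 38.1 per Mb of eligible intronic sequence between 1 and 5 kb (exact Poisson 95% interval 35.3 to 41.1, over 17.7 Mb), and 13.9 per Mb beyond 5 kb (12.6 to 15.3, over 29.6 Mb). The ratio was 2.75 (two-sided exact binomial test, p = 5.47e-61). Intergenic sequence away from start sites held 10.6 per Mb. The test takes summits as independent, although 18.05% of them lay within 1000 bp of another. Every base that met the position rule was counted, with no filter for sequence where reads cannot be placed. On 3L, an arm of 28110227 bp, the largest peak end was 22879137. How far such sequence changed the densities and their ratio was not tested.

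The density changed within the interval as well. It was 55.7 per Mb at 1001 to 1500 bp, 46.0 at over 1500 to 2000 bp and 36.0 at 2001 to 2500 bp, and then stayed between 22.3 and 33.5. Each of the 8 bins had a lower bound above 13.9, the level beyond 5 kb. The median distance was 2155 bp. Of the 676, 69.97% lay downstream of the nearest start site, close to the 68.7% of eligible bases that did.

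**Figure D3:**
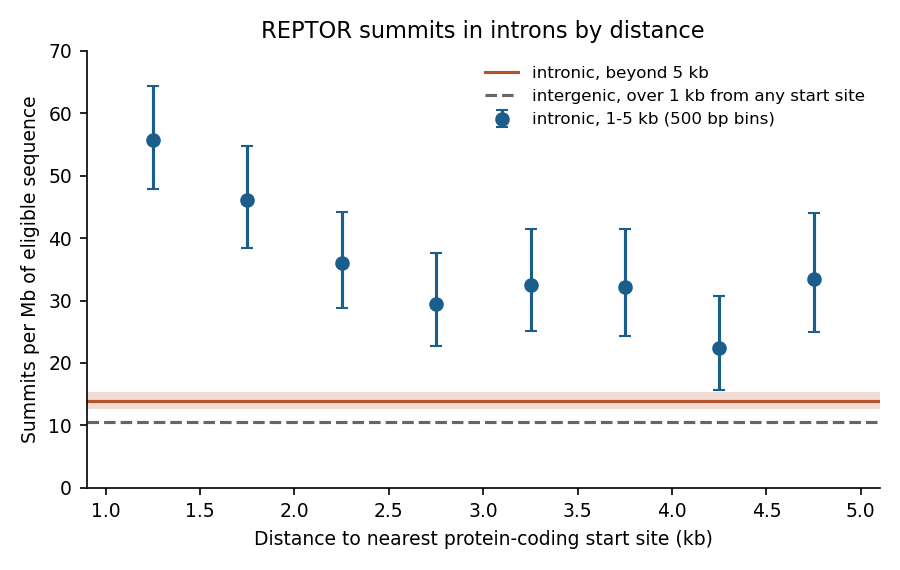
Summits per Mb of eligible intronic sequence in 500 bp bins of distance to the nearest protein-coding start site, with exact Poisson 95% intervals. The solid line and band give introns beyond 5 kb (13.9) and the dashed line intergenic sequence (10.6), and all 8 bins lie above both.

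At the edges of the rule, ckn (1004 bp from a start site, 54.5 in replicate 1 and 60.7 in replicate 3) and Cyt-c-p (1006 bp, 78.6 and 91.7) were just inside the lower limit. Hmu (999 bp, 47.5 and 65.9) and CG9747 (998 bp, 60.6 and 43.0) were just outside it. At the upper limit Oatp74D (4999 bp, 44.3 and 43.5) and tara (4994 bp, 63.1 and 61.1) were inside, and Mnt (5005 bp, 40.6 and 55.7) and Ac13E (5034 bp, 86.3 and 83.7) outside. Signals on the 2 sides of each limit overlapped in both replicates.

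First introns held 526 of the 676 summits (77.8%, 74.5 to 80.9), where 56.5% of the eligible bases lay (two-sided exact binomial test, p = 6.45e-31). The share of eligible bases in first introns fell with distance from a start site, so the shares were also taken by distance. At 1001 to 1500 bp 85.6% of summits were in a first intron, against 65.6% of bases. At 4501 to 5000 bp the values were 58.8% and 48.2%. The share of summits was above the share of bases in each of the 8 bins. The bins held as few as 37 summits and were not tested, nor was the part of distance in the excess. The introns were long, with a median of 7511 bp.

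The nearest start site belonged to a gene that spans the summit in 586 cases. In the other 90 it belonged to another gene, as cbt does for ush, Grip91 for Pdcd4 and CG12985 for mnb. The median signal was 120 in the first set and 124 in the second.

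Of 6850 protein-coding genes with any eligible sequence, 502 (7.33%) spanned a summit. The share rose with the amount of eligible sequence, from 0.465% of genes with at most 1 kb to 32.2% of genes with over 10 kb. Host genes often had a REPTOR summit at a promoter too, in 330 of 474 (69.6%), beside 36.2% of genes with eligible sequence and no intronic summit. A promoter summit was one within 1000 bp of any annotated start site of the gene, and the number of start sites was not accounted for. These shares were also taken by amount of eligible sequence, a split chosen after seeing the data. The first share then covers all 502 genes that spanned a summit. Among genes with over 10 kb eligible, the shares were 75.2% and 33.6%. Among those with over 3 to 10 kb they were 64.3% and 31.2%. With over 1 to 3 kb they were 70.7% and 38.2%, and with at most 1 kb 66.7% (of 18 genes) and 37.5%. The median signal of the intronic summits was 121 both with and without a promoter summit of the host.

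A few genes held many summits. Of the 474 hosts, 343 had 1, 92 had 2 and 39 had 3 or more. shn, a zinc finger factor of the Dpp pathway, had 9 in 30.3 kb of eligible sequence, spread over 28589 bp. Its strongest had 142 in replicate 1 and 117 in replicate 3. CHES-1-like, a forkhead factor gene, had 8 in 10.99 kb, and its strongest had 180 and 183. Then came ush with 6, and Pdcd4, atos and tna with 5 each. Tlk and CG32264 had 4 each. With overlapping rows counted once, shn and CHES-1-like had 7 each and Pdcd4, an inhibitor of translation, had 3. All 8 genes also had a promoter summit.

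Host genes were read against 20 lists of genes by role, as counts beside the 7.33% of all genes with eligible sequence. Of the 276 distinct list genes with eligible sequence, 62 (22.5%) were hosts, so a share above 7.33% does not by itself set a list apart from the others. The 7.33% covers 3869 genes with at most 1 kb eligible, of which 0.465% were hosts. The part of this in the difference between 22.5% and 7.33% was not tested. Genes differ in how much eligible sequence they hold, so the density per Mb is given too, beside 38.1 for all. No list was tested.

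Among bZIP factor genes, the family of REPTOR itself, 8 of 11 with eligible sequence hosted a summit, 14 summits in all and 154 per Mb (84.4 to 259). Pdp1, the PAR bZIP factor of the clock, had 4 summits, the strongest with 132 in replicate 1 and 141 in replicate 3. kay, which encodes Fos, had 99.8 and 106. CrebB had 100 and 89.8, and Atf3 had 90.3 and 91.8. The others were cnc, the fly Nrf2, with vri and CrebA. Apart from REPTOR, the strongest summits of these genes ran from 94.6 in CrebA to 267 in Pdp1 in the joint list, and in Pdp1, kay, CrebB and Atf3 the replicates lay close together.

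The chromatin and Polycomb list had the highest density of the lists described with more than 0.03 Mb, 217 per Mb (116 to 371), from 13 summits in 5 of 23 genes. After Trl came trx, a histone methyltransferase gene, with 173 in replicate 1 and 191 in replicate 3. psq had 124 and 127. ph-p, a Polycomb complex subunit, had 113 and 131, and it has a near-identical neighbour, ph-d, so the assignment of reads between the copies is uncertain. lola had 2 weak summits, the stronger with 61.2 and 33.3. The summits of Trl, trx, psq and ph-p were at similar levels in both replicates.

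The list of TORC1 and insulin signalling genes, in which REPTOR acts, had 4 hosts of 23 (8 summits, 85.6 per Mb, 37.0 to 169). REPTOR, which is in the bZIP list too, gave 3 of the 8. Beside REPTOR these were SNF4Agamma, the gamma subunit of AMPK, with 107 and 82.5 in replicates 1 and 3, foxo with 62.0 and 49.9, and the kinase gene Lk6 with 45.5 and 41.9. The foxo and Lk6 summits were below the median of the whole list. With a limit of 500 bp from start sites in place of 1000 bp, 10 genes of the list were hosts.

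In energy storage, 4 of 19 genes were hosts, with 84.7 per Mb (23.1 to 217). bmm, the main triglyceride lipase of fat storage, had 220 in each replicate. Lsd-2, a lipid droplet protein, had 156 in replicate 1 and 170 in replicate 3. Glyp, glycogen phosphorylase, had 44.3 and 49.9, and ACC, acetyl-CoA carboxylase, had 45.4 and 39.3. bmm and Lsd-2 were thus well above Glyp and ACC in both replicates.

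In EGFR and Ras signalling, 5 of 17 genes were hosts, with 113 per Mb (54.2 to 208). After Raf came aos, a secreted inhibitor of the receptor, with 217 and 193 in replicates 1 and 3. aop, an ETS repressor, had 4 summits, the strongest with 61.3 in replicate 1 and 139 in replicate 3. sty, an inhibitor of the pathway, had 68.1 and 118. In aop and sty replicate 3 was the higher.

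The list of JNK, Hippo and TGF-beta genes had 116 per Mb (61.7 to 198), with shn giving 9 of its 13 summits. kay, also a bZIP gene, gave 1. The JNK phosphatase gene puc had 73.0 and 82.2, and the Hippo kinase gene wts 28.2 and 61.5. Of nuclear receptor and ecdysone genes, 8 of 17 were hosts, led by Hr3 with 138 and 140, but the density of 51.1 per Mb (23.4 to 97.0) had an interval that held 38.1. Stress response genes had 131 per Mb (42.6 to 306), from 5 summits, of which Atf3 gave 2 and cnc 1 that are also in the bZIP list.

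Several other lists had intervals that held 38.1. Embryonic patterning factors had 2 hosts of 23, Antp and Abd-B, with 23.6 per Mb (4.88 to 69.1). Notch, Wingless and Hedgehog genes had 33.2 per Mb, led by mam with 158 in replicate 1 and 204 in replicate 3. Cytoskeleton and adhesion genes had 29.6 and RNA-binding and translation regulators 29.8 per Mb. The circadian clock list, which shares Pdp1 and vri with the bZIP list, had 91.5. Of the lists that mark tissues, muscle genes had 88.0 per Mb (28.6 to 205) from Mef2 and Tm1. The blood cell list had 175 per Mb (64.1 to 380.4), above 38.1, but ush gave all 6 of its summits. Glia had 110 per Mb from the 1 summit of loco, and germline 72.9 from the 2 of pum. The lists for neurons (0 of 7 genes, 0 to 88.4 per Mb) and fat body (0 of 1, with 0.000227 Mb eligible) had none. The interval for neurons held 38.1, and the fat body list had too little eligible sequence to be read.

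**Figure D4:**
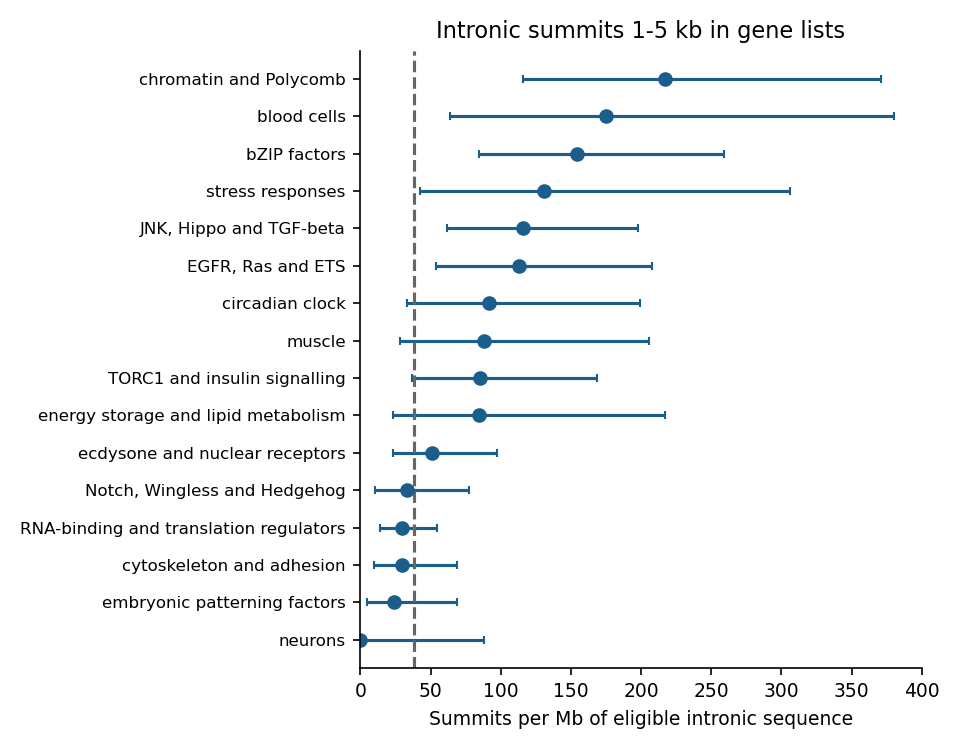
Intronic summits per Mb of eligible sequence in the gene lists described that had more than 0.03 Mb, with exact Poisson 95% intervals that cover counting error only. The dashed line is the density over all genes (38.1). The intervals of 6 lists lie wholly above it: chromatin, blood cells, bZIP, stress responses, JNK with Hippo and TGF-beta, and EGFR with Ras. They take summits as independent and are no test of a list. One gene, ush, gave all 6 blood cell summits, and shn gave 9 of the 13 in the JNK list.

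The summits sat in a dip of GC content. The median over the summit and 50 bp on each side was 33.7%, against 40.6% in windows of the same size 500 bp away towards the start of the host gene, and 461 of 676 summits (68.2%) were below their own flank. Flanks here and in the motif and word comparisons below were placed by distance alone. They could thus lie in exons or within 1000 bp of a start site, where the summits could not. The part of this in the comparisons was not tested. All of the 20 strongest were below 38.6%, the median of the whole list. GC above that median was found in 29.7% of the summits and in 53.2% of those over 100 and up to 1000 bp downstream of a start site (two-sided Fisher's exact test, adjusted p = 9.37e-15). That downstream class was not limited to introns, so its summits could lie in exons, where the 676 could not. The part of exons in this difference was not tested. The difference from intronic summits beyond 5 kb (28.8%) was 0.95 percentage points (same exact test, adjusted p = 0.940). Against intergenic summits (37.6%) the adjusted p was 0.0706, and this call depended on the settings.

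**Figure D5:**
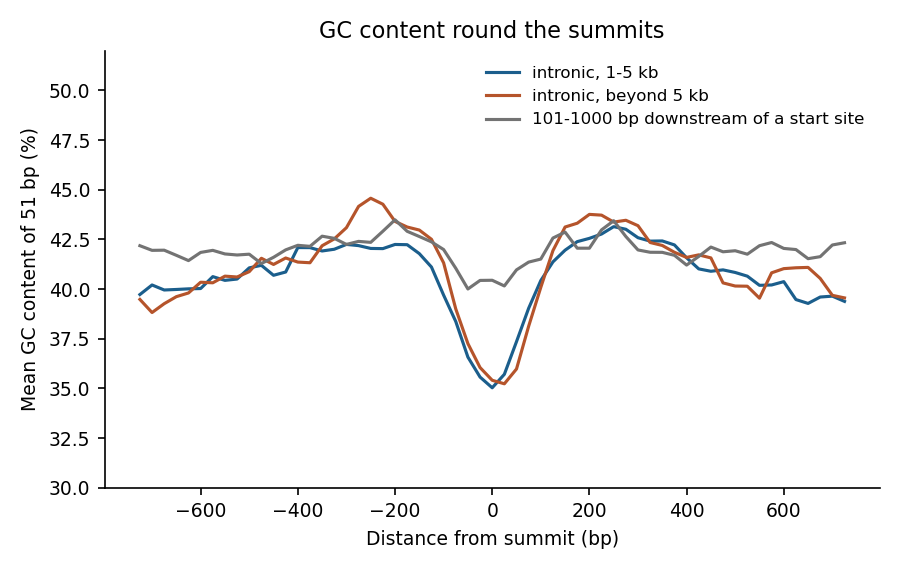
Mean GC content of 51 bp windows by distance from the summit for intronic summits 1 to 5 kb and beyond 5 kb from a start site and for summits over 100 and up to 1000 bp downstream of one. At the centre the means are 35.0%, 35.4% and 40.4%, and both intronic classes show a dip within about 100 bp. The downstream class was not limited to introns.

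None of the 25 motifs differed in share between summits and flanks past the threshold of two-sided exact McNemar tests with Benjamini-Hochberg adjustment (lowest adjusted p = 0.198, and 5 at an unadjusted p under 0.05). The words were searched on both strands within 50 bp of the summit. The bZIP words were rare. The CRE palindrome TGACGTCA was in 2 of 676 windows and in 2 flanks, and 0.226% of all optimal summits held it. The PAR bZIP words TTACGTAA, TTATGTAA and TTACATAA were in 12 summit windows and 5 flanks. AP-1 (TGACTCA or TGAGTCA) was in 13 and 11. The shorter CRE word TGACGT went the other way, with 12 summit windows and 25 flanks (exact McNemar test, unadjusted p = 0.0351, adjusted p = 0.198).

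The E-box CATATG was in 38 summit windows (5.62%) and 19 flanks, and the homeodomain word TAATTA in 67 and 46. The words TGATAA or AGATAA, which GATA factors bind, were in 120 and 97. GAGAGAG, a word of the GAGA factor, went the other way, with 14 and 29. Fisher's exact tests (two-sided) against intronic summits beyond 5 kb and against summits downstream of a start site gave no call in 50 comparisons (lowest adjusted p = 0.370, and 4 at an unadjusted p under 0.05). DRE (TATCGATA), a word of housekeeping promoters, was in 1 of 676 windows, beside 3.55% of all optimal summits. It was in 0 of 410 intronic summits beyond 5 kb (exact 95% upper bound 0.896%) and 2 of 487 summits downstream of a start site. These counts describe the letters in the windows and say nothing of whether a factor was bound.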

How the data were processed

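Peak lists were used as deposited. Per the file headers and notes, the list of each replicate held peaks and background calls, and the authors made the optimal list from both replicates by irreproducible discovery rate. The values are peak signal as deposited, on a scale not given in the sources used here, as are the aligner and caller. No read counts were used, so depth is unknown and intervals cover counting error only.

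Summits (start plus the deposited offset) were placed on BDGP6 (Ensembl release 115), whose coordinates matched RefSeq dm6 for 13944 of 13945 protein-coding genes. A replicate's value was its strongest call overlapping by 1 bp or more. The replicates' log2 ratio was centred on the median of all peaks. Python 3.11.15, pandas 2.3.3 and SciPy 1.17.1 were used, the tests were checked on simulated data, and p-values were adjusted by Benjamini-Hochberg with a threshold of 0.05.

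The members and lists were chosen with earlier results of these data known. Named were the 20 strongest summits, the 8 hosts with most summits, up to 4 strongest hosts per list, the 3 widest replicate ratios each way and the 2 summits nearest each side of each limit. Others (bZIP hosts beyond the first 4, lola, loco, pum and the like) were named after their values were seen. Of 348 list names, 345 matched. The values of 1 list are not reported here.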

Additional observations from a re-analysis of the deposited data

How the results depend on the processing

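The higher density between 1 and 5 kb and the excess in first introns kept direction and call under each alternative run for them, as did the lower GC content than at summits downstream of a start site. None of these alternatives took exons out of the downstream class, or sequence where reads cannot be placed out of the eligible bases. With 1 row for each group of overlapping peaks, an alternative chosen after seeing the data, the density ratio was 2.67. The strongest part of the list held 319 members.

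The GC difference from intergenic summits was -7.91 percentage points by Fisher's exact test and passed with a limit of 500 bp (-9.37, adjusted p = 0.00321), in the strongest part of the list (-18.6, 0.000474) and with overlapping rows taken once (-9.27, 0.0194). It was 1.501 (0.822) over 100 bp on each side of the summit. The cause was not tested. The GC difference from summits beyond 5 kb was -5.17 in the strongest part. The share in the stronger part of the list, members minus summits beyond 5 kb, was -0.42 to 10.4 with 1 replicate left out (without replicate 3, exact test, adjusted p = 0.00234), and minus intergenic summits it was 5.79 to 7.65 (0.0387 without replicate 3). Minus downstream summits it was 8.66 (0.0400) at 500 bp. No reversed difference passed. The share strongest in both replicates was -0.0683 (beyond 5 kb) and 0.290 (downstream) in the strongest part, -0.230 (beyond 5 kb) with overlapping rows taken once and 0.149 (downstream) with stricter overlap of replicate calls. The 2-fold share was 0.401 (beyond 5 kb) and 0.254 (intergenic) at 500 bp.

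Against downstream summits 1 motif, the CA repeat, passed at 500 bp and with 100 bp on each side of the summit. Against flanks towards the end of the host gene 2 motifs passed. FOXO was in 4.88% of summit windows and 1.33% of flanks (exact McNemar test, adjusted p = 0.00679). Pho was in 14.8% and 21.7% (exact McNemar test, adjusted p = 0.0140). In the flanks towards the start of the host gene, used above, the shares were 3.25% for FOXO and 18.5% for Pho. Neither motif passed there. The summits had lower GC content than those flanks, and the part of GC content in the FOXO and Pho differences was not tested. With a limit of 500 bp, hosts rose from 4 to 10 in the TORC1 list, from 0 to 1 in neurons, from 1 to 2 in glia and from 1 to 3 in germline. No paired analysis was possible because there was 1 group.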

Other observations

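After none of the 25 motifs passed, words of fixed length were compared between summit windows and flanks 500 bp away. This search was chosen after seeing the data, and 12 scans were run in all, 7 of which gave no call. Of 2080 words of 6 bases at the 676 intronic summits, 38 passed two-sided exact McNemar tests with Benjamini-Hochberg adjustment against the flank at the higher coordinate, 69 against the flank towards the start of the host gene and 25 against the flank towards its end. Only 12 words passed against all 3, and 10 of those 12 held at most 1 G or C. The 3 comparisons share the summit windows. The flank at the higher coordinate is also the start or the end flank, depending on the strand of the host, so they are not separate comparisons. AAATTT, for example, was in 99 summit windows and in 44 flanks at the higher coordinate (exact McNemar test, adjusted p = 0.00354). The summits had lower GC content than their flanks, and its part in these counts was not tested.

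Words of 7 bases gave 0 calls at the same summits (387 at an unadjusted p under 0.05). Intronic summits beyond 5 kb and intergenic summits gave 0 calls at either length, and so did the 235 intronic summits with a signal above 150. All summits other than the 676, which number 4645 and include the promoter summits, gave 959 calls at 6 bases and 1344 at 7. The classes differ in size, so these counts do not compare them.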
